A study of Drosophila melanogaster with 2 samples.

Results

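The basement membrane genes Col4a1, vkg, LanA, LanB1, LanB2, trol, Ndg, SPARC, Pxn and Ppn were followed through a dye-swap comparison of Drosophila larvae on 2 two-colour arrays. Their probes were chosen by gene name alone: a probe was taken when its single annotated symbol, brought up to date, was 1 of these 10. That gave 13 of the 15744 probes in the table, with at least 1 for each gene, out of 12236 genes named by the probes of the table. Of the 13, 11 probes for 9 genes had a value on both arrays, among 10912 compared probes in all. The probe for Ndg and the second probe for Pxn had a value on array 2 alone.

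Each array set polyA RNA of larvae from GMR crossed to GFP-dASF/SF2 against polyA RNA of larvae from GMR crossed to GFP-NLS, the control. Both crosses carry GMR, an enhancer active in the developing eye, and both carry a GFP transgene, with GFP joined to the SR splicing factor dASF/SF2 in one and to a nuclear localisation signal in the other. On array 1 the dASF/SF2 RNA carried Cy5 and the control RNA Cy3, and on array 2 the dyes were exchanged. The series asks whether more dASF/SF2 changes gene expression broadly. The labels give neither the age, sex or number of the larvae nor the tissue taken, and they do not say whether the arrays used separate RNA extracts. The p-values below therefore measure the spread between 2 arrays, pooled in part over all probes, and that spread may be technical. In RNA from many cell types a change in the number of cells of a type and a change in RNA per cell cannot be told apart.

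Values are log ratios on the deposited scale, with each array's median set to 0. The sign of array 2 was turned, which places both arrays on a scale of dASF/SF2 over control where the deposited ratio has Cy5 in the numerator. Neither the numerator nor the log base is settled by the labels or the table. The labels list the dASF/SF2 cross as channel 2 on both arrays, so a ratio of channel 2 over channel 1 would already run by genotype and need no turning; values under that reading are given as well. Values are therefore described as lying on a positive or a negative side, which would exchange places with Cy3 in the numerator, and sizes are also given as folds, once per candidate base (2 and 10). A ratio also says nothing of how strongly a gene is expressed.

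Basement membranes are thin sheets of extracellular matrix that line epithelia and wrap muscles, nerves, fat body and imaginal discs. Collagen IV and laminin each assemble into a network, and perlecan and nidogen link the networks to each other. In Drosophila larvae the fat body and blood cells (hemocytes) secrete much of this matrix into the hemolymph, from which it is deposited on other tissues. Integrins and dystroglycan on the cell surface hold cells to it.

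No basement membrane probe passed the test of dASF/SF2 against control. Limma called 0 of the 11 probes at an adjusted p under 0.05, and also 0 of all 10912 probes (0.0%). At an unadjusted p under 0.05 there was 1 of the 11, LanA, against 6.64% of all probes. The means of the 11 probes ran from -0.328 for LanA to 0.243 for Ppn, and 10 of the 11 lay inside the central 95% of all probe means (-0.272 to 0.367). LanA lay outside it on the negative side.

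Sides were shared between the arrays for 9 of the 11 probes, against 49.2% of all compared probes. Of these, 6 were negative on both arrays (24.5% of all probes) and 3 positive on both (24.7%). The 6 belong to LanA, LanB1, LanB2, SPARC and trol, the last with 2 probes. The 3 belong to Ppn, vkg and the remaining trol probe. Counted by gene, sides were shared for 6 of 9, against 49.0% of all genes. The mean of the 3 trol probes lay on opposite sides. The median absolute difference between the arrays was 0.081 for the 11 probes and 0.151 for all probes. The median of the 11 means was -0.0735, with -0.058 on array 1 and -0.057 on array 2, against -0.0005 for all compared probes.

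**Figure D1:**
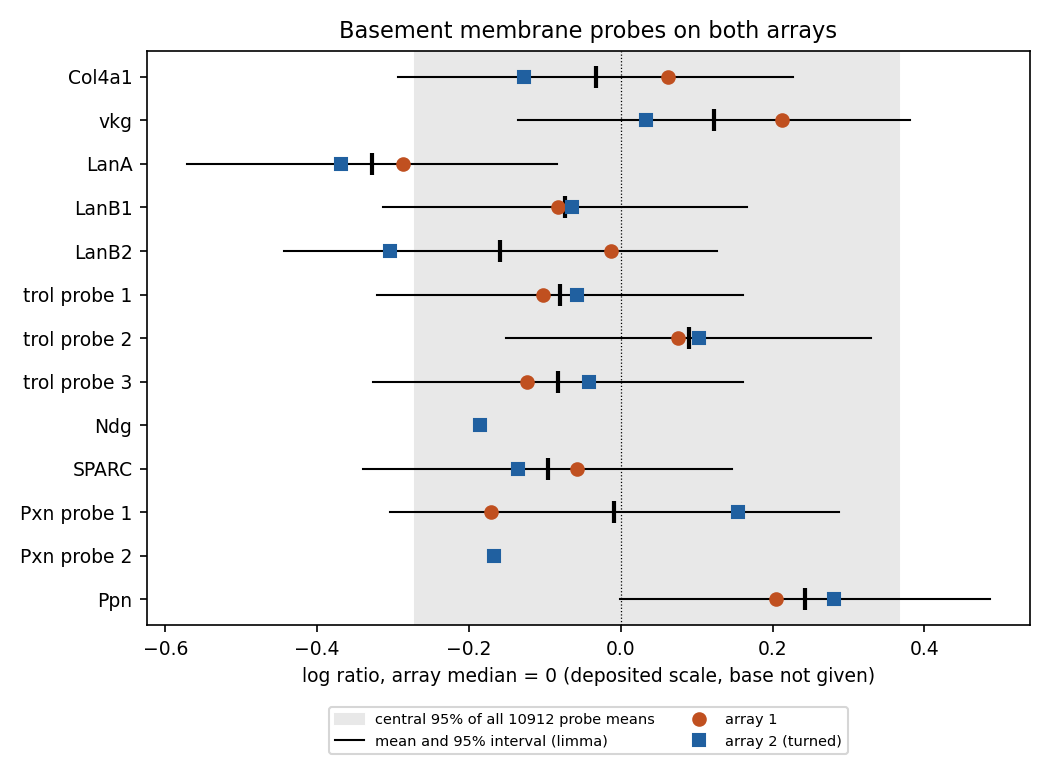
Log ratio of dASF/SF2 over control larvae on the deposited scale (x axis) for the 13 basement membrane probes (rows), with circles for array 1, squares for array 2 after its sign was turned, and bars for the mean with limma's 95% interval; grey marks the central 95% of all probe means. The LanA interval lies below 0 and the other 10 intervals hold 0; Ndg and Pxn probe 2 have array 2 alone.

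Laminin is a trimer of an alpha, a beta and a gamma chain. LanA encodes an alpha chain, LanB1 the beta chain and LanB2 the gamma chain. All of their probes lay on the negative side on both arrays, with means from -0.328 to -0.0735.

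LanA (CG10236) had -0.287 on array 1 and -0.368 on array 2. Both values were negative and differed by less than 0.1; that of array 2 lay below the central 95% of compared probes on its array (-0.295 to 0.398), that of array 1 inside it (-0.467 to 0.548). The mean was -0.328 ± 0.057 (SD, n = 2). Its 95% interval was -0.571 to -0.084, and the adjusted p by limma was 0.562. Its size is 1.25-fold on base 2 or 2.13-fold on base 10. Of all compared probes, 5.19% had a mean at least as far from 0 on either side.

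LanB2 (CG3322) had -0.013 on array 1 and -0.304 on array 2. Its position on the negative side thus rested on array 2, with array 1 close to the median. The mean was -0.159 ± 0.206 (SD, n = 2), with an interval of -0.444 to 0.127 and an adjusted p of 0.964 by limma. LanB1 (CG7123) had -0.083 on array 1 and -0.064 on array 2. These values were close to each other and near the median, and 51.7% of all probes had a mean at least as far from 0. The mean of -0.0735 ± 0.0134 (SD, n = 2) had an interval of -0.314 to 0.167. The 3 chains' intervals overlap, and the differences between chains were not tested.

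The laminin alpha chain that LanA does not encode is the product of wing blister (wb). Its probe had -0.169 on array 2 and no value on array 1. This was on the same side as LanA, at less than its size on that array, with no dye-swapped value beside it.

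Collagen IV, the triple-helical collagen that gives basement membranes their tensile strength, is built from the products of Col4a1 (Cg25C in older annotation) and viking (vkg). Both genes are neighbours in the Release 6 plus ISO1 MT reference table, with 0 other protein-coding genes between them. Neither probe stood apart from the bulk of the array: 76.6% of all probe means were at least as far from 0 as that of Col4a1, and 30.5% as that of vkg.

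Col4a1 (CG4145) had 0.062 on array 1 and -0.128 on array 2. The arrays put it on opposite sides, and its mean was -0.033 ± 0.134 (SD, n = 2). The interval of -0.293 to 0.227 covers ratios from 0.816 to 1.17 on base 2, or from 0.509 to 1.69 on base 10. vkg (CG16858) had 0.213 on array 1 and 0.033 on array 2. Both were positive, with array 2 near the median. The mean was 0.123 ± 0.127 (SD, n = 2), the interval -0.135 to 0.381, and the adjusted p by limma 0.997 for both collagen genes.

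Terribly reduced optic lobes (trol) encodes perlecan, a large heparan sulfate proteoglycan that also binds growth factors. It was the only member with several probes measured on both arrays, and RefSeq lists 25 transcripts for it in the same reference table. The first trol probe had -0.102 on array 1 and -0.057 on array 2, and the third had -0.124 and -0.042. The second had 0.076 on array 1 and 0.103 on array 2. So 2 probes were negative on both arrays and 1 was positive on both, while the arrays differed from each other by less than 0.1 within each probe. The probe means of -0.0795, 0.0895 and -0.083 spanned 0.173, and each interval held 0. The mean over the trol probes was -0.0243 ± 0.0363 (SD, n = 2). Where the probes lie within the gene is not known from the files.

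Nidogen (Ndg, CG12908), which binds laminin and collagen IV, had -0.186 on array 2. That value lay within the central 95% of the compared probes on array 2 (-0.295 to 0.398). There was no value on array 1, so it entered no test.

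SPARC (CG6378) is a secreted collagen-binding glycoprotein that collagen IV needs for its normal deposition in Drosophila. Its probe had -0.058 on array 1 and -0.135 on array 2. Both values were negative and small, and the mean of -0.0965 ± 0.0544 (SD, n = 2) had an interval of -0.340 to 0.147 and an adjusted p of 0.997 by limma.

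Peroxidasin (Pxn, CG12002) is an enzyme that crosslinks collagen IV, and its gene is widely used as a hemocyte marker in flies. The first Pxn probe had -0.171 on array 1 and 0.154 on array 2. The arrays were on opposite sides at nearly equal size, so that the mean was -0.0085 ± 0.230 (SD, n = 2), the widest spread of the 11 probes. The second probe had -0.167 on array 2 alone. On array 2, where both could be read, the 2 probes of this gene therefore lay on opposite sides.

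Papilin (Ppn, CG33103) is a large glycoprotein of the basement membrane that hemocytes secrete, and it inhibits metalloproteases of the ADAMTS family. It had 0.204 on array 1 and 0.281 on array 2, the highest of the 11 probes on array 2 and next to vkg on array 1. The mean was 0.243 ± 0.054 (SD, n = 2), which is 1.18-fold on base 2 but 1.75-fold on base 10. Its interval, -0.000965 to 0.486, just held 0, and the adjusted p by limma was 0.753. In size, 1096 of the 10912 probe means were at least as far from 0.

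**Figure D2:**
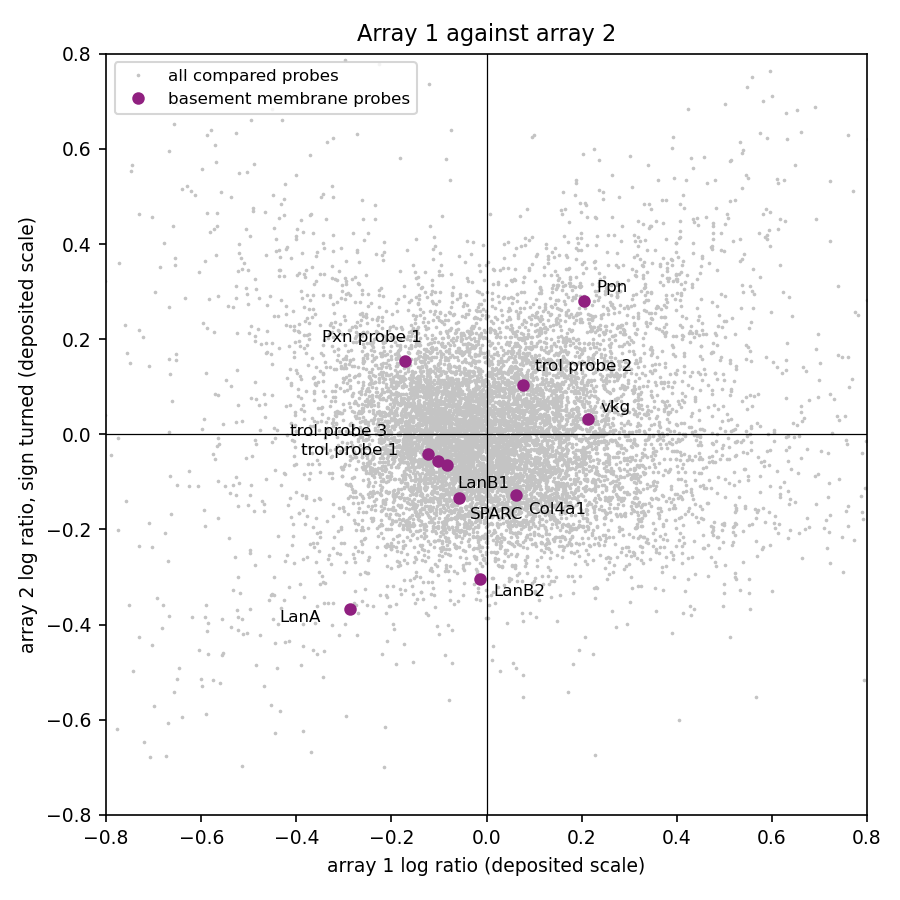
Array 1 log ratio (x axis) against array 2 log ratio after its sign was turned (y axis), both on the deposited scale, for all 10912 compared probes (grey) and the 11 basement membrane probes (purple); 163 probes fall outside the axes. LanA lies lower left and Ppn upper right; Col4a1 and Pxn probe 1 lie where the arrays disagree in sign.

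The intervals are those of single probes and carry no adjustment for the number of probes tested. A mean beyond their half-widths could therefore go uncalled. LanA, whose interval excluded 0, had an adjusted p of 0.562 by limma. Outside the 11, the midgut protease gene epsilonTry had a probe mean of -0.869 and an adjusted p of 0.374 by limma. The smallest change that would have been called was not estimated. Half-widths of the intervals ran from 0.240 to 0.296 over the 11 probes. The narrowest corresponds to 1.18-fold on base 2 and to 1.74-fold on base 10. A shift of at least 1.5-fold in the same direction on both arrays was found for 0 of the 11 on base 2 (0.211% of all probes). On base 10 it was found for 2, LanA and Ppn (7.33% of all probes).

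Signs on array 2, and means and rankings over both arrays, those of the lists of other genes included, rest on the deposited values running by dye. Without turning, the mean changed sign for 6 of the 11 probes and kept it for the others. Where the deposited values already run by genotype, no array is to be turned. LanA then had -0.287 and 0.368, with a mean of 0.0405 in place of -0.328. Under that reading the arrays shared a side for 2 of the 11 probes, Col4a1 (mean 0.095) and the first Pxn probe (-0.163). The same probes were those whose arrays opposed each other after turning, since turning 1 array exchanges shared and opposite sides. Of all 10912 compared probes, 5542 did not share a side after turning. Limma called 0 probes under this reading, with 556 of all probes at an unadjusted p under 0.05, against 725 with array 2 turned.

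**Figure D3:**
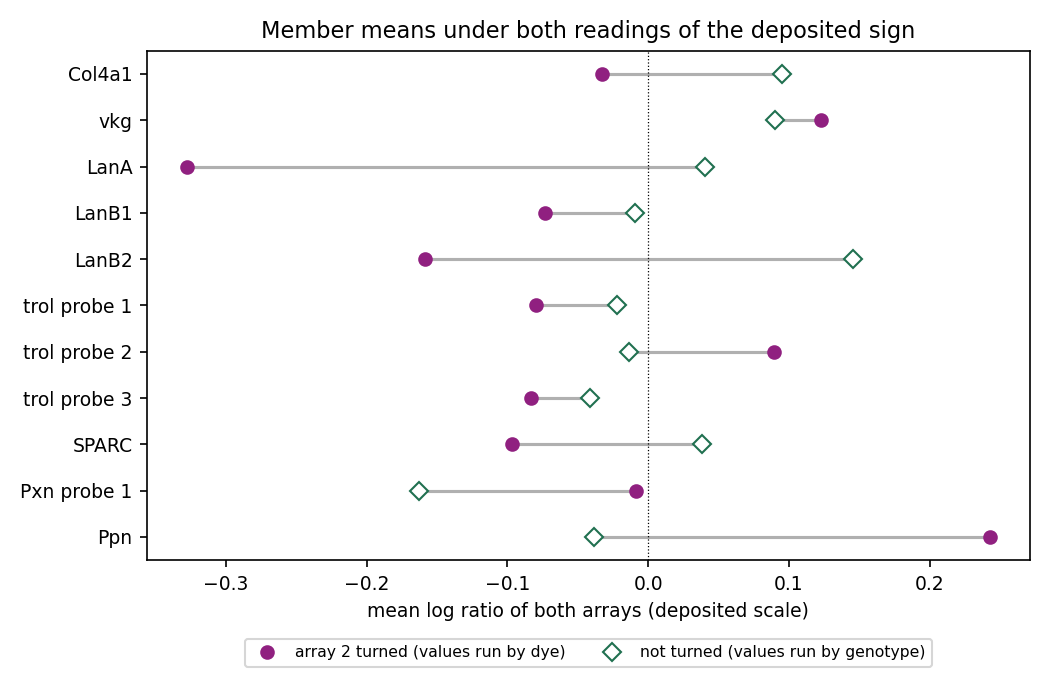
Mean log ratio of both arrays on the deposited scale (x axis) for the 11 basement membrane probes (rows), with array 2 turned (circles) and not turned (diamonds). With array 2 turned, the means of LanA and Ppn lie farthest from 0 among the 11, that of Ppn inside the central 95% of all probe means. Without turning, both lie within 0.05 of 0. Col4a1 and Pxn probe 1 lie farther from 0 without turning.

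Genes that act with the basement membrane were read from 5 lists, as means over the probes of each gene. Limma on these means called none of the 9266 genes (0.0%), so 0 members of any list passed in either direction; 674 genes had an unadjusted p under 0.05 (7.27%). Both arrays were positive for 24.0% of all genes and negative for 25.0%, which makes 49.0% with a shared side. The basement membrane genes themselves counted 2 positive, 4 negative and 3 on opposite sides of 9, with a median of -0.033 against -0.001 for all genes. Among these 9, LanA and Ppn had an unadjusted p under 0.05 in the fit of gene means, with adjusted p of 0.443 and 0.668 by limma. Each has 1 probe, so these are the values given above, refitted with the variances of gene means. For Ppn the unadjusted p by limma was 0.0506 in the probe fit and 0.0458 here.

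Of 12 listed cell receptors, 9 were measured on both arrays, 4 positive on both and 2 negative on both, with a median of 0.0225. An unadjusted p under 0.05 was found for 3 of the 9. With array 2 turned, scab (scb), an integrin alpha chain, was highest, with 0.483 on array 1 and 0.475 on array 2; without turning its mean was 0.004, and the glypican gene dlp was highest at 0.189. The turned scb mean, 0.479, had an interval of 0.244 to 0.714 and an adjusted p of 0.207 by limma, and a second scb probe had 0.116 on array 2 alone. The integrin alpha gene ItgaPS4 was lowest, with -1.10 on array 1 and -0.389 on array 2, a mean of -0.747 (interval -1.13 to -0.366, adjusted p 0.219 by limma); it was lowest without turning too, at -0.358.

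By their means, the other receptors measured on both arrays lay nearer the median. Those given here were picked out after their values were seen. The integrin alpha gene ItgaPS5 had no value on array 1. On array 2 it had -0.544, below the central 95% of compared probes on that array (-0.295 to 0.398). The integrin beta chain gene myospheroid (mys) had 0.147 on array 1 and -0.102 on array 2, and the laminin-binding alpha chain gene multiple edematous wings (mew) had 0.101 and 0.13. Dystroglycan (Dg), a receptor for laminin and perlecan, had -0.10 on array 1 and -0.421 on array 2. The mean, -0.261, was on the same side as the laminin genes, with an interval of -0.531 to 0.00984. Syndecan (Sdc), a transmembrane heparan sulfate proteoglycan, had 0.29 and 0.189, on the other side.

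Of 12 listed enzymes and transport factors that make and export collagen, 9 were measured, 3 of them positive and 1 negative on both arrays, with a median of 0.0045. PH4alphaMP, of the prolyl 4-hydroxylase alpha family, was highest at 0.185 on array 1 and 0.31 on array 2, and was the 1 gene of the 9 with an unadjusted p under 0.05 (mean 0.248, interval 0.00722 to 0.488, adjusted p 0.66 by limma). Pdi, encoding protein disulfide isomerase, was lowest at -0.154 and -0.005. Prolyl hydroxylase PH4alphaEFB, which acts on collagen IV in the fat body, had a mean of 0.0595, and Tango1, needed for collagen export from the endoplasmic reticulum, 0.0155. The last 2 were picked out for their role after their values were seen.

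Among matrix proteases and their inhibitors, 5 of 8 listed genes were measured, with a median of 0.0025. The ADAMTS protease gene sona, known from earlier results to lie on the positive side, had 0.691 on array 1 and 0.688 on array 2. The mean, 0.69, had an interval of 0.455 to 0.924 and an adjusted p of 0.145 by limma, and a second probe had 0.547 on array 2 alone. It was the 1 gene of the 5 with an unadjusted p under 0.05. Without turning its mean was 0.0015, and AdamTS-A was highest of the list at 0.149. Lowest with array 2 turned was the matrix metalloprotease gene Mmp2, at -0.119 and -0.155. The other ADAMTS genes measured, picked out after their values were seen, were AdamTS-A with 0.161 on array 1 and -0.137 on array 2, and AdamTS-B with -0.004 and -0.21.

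Of 7 listed further matrix proteins only 3 were measured. NetB, which shares laminin-like domains, was highest at 0.106 on array 1 and 0.246 on array 2. Multiplexin (Mp), the fly relative of the vertebrate basement membrane collagens XV and XVIII, had 0.18 and 0.004, and tiggrin (Tig), an integrin ligand, was lowest at -0.107 and 0.021. The integrin adhesion complex inside the cell had 11 of 13 listed genes measured, 3 positive and 3 negative on both arrays, with a median of 0.049. Without turning, the medians of the 5 lists ran from -0.064 for the further matrix proteins to 0.023 for the adhesion complex. With array 2 turned, vinculin (Vinc) was highest at 0.473 and 0.002, a value set by array 1, and focal adhesion kinase (Fak) lowest at -0.077 and -0.278.

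**Figure D4:**
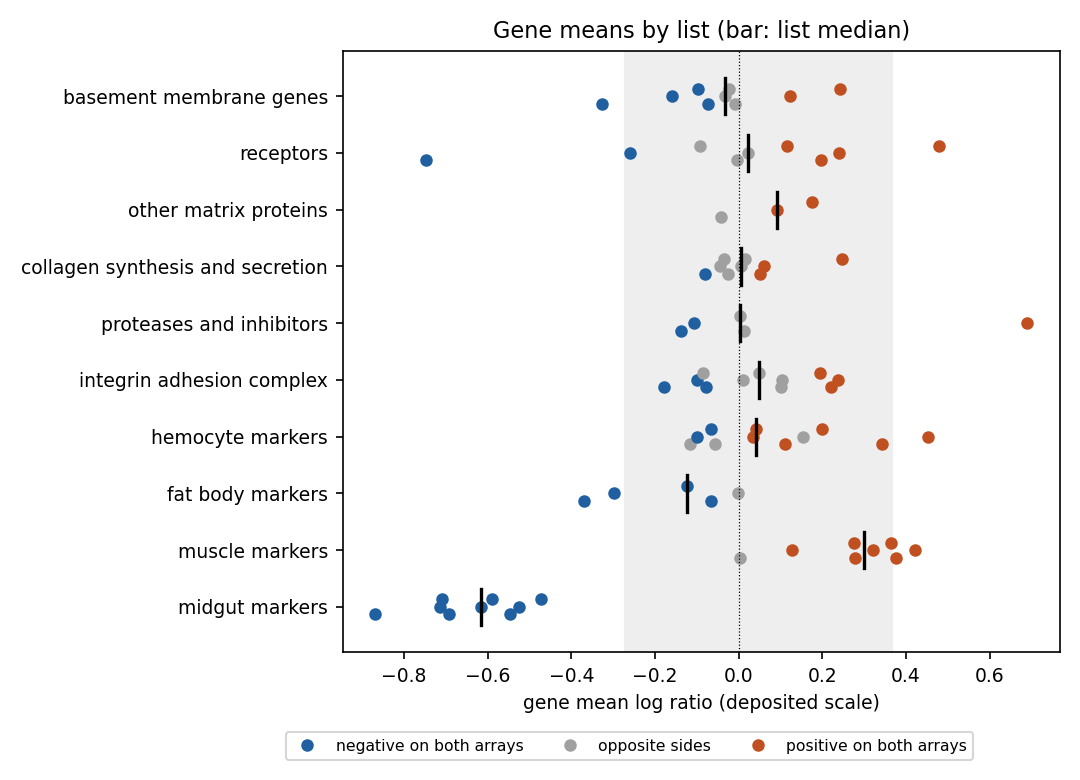
Gene mean log ratio on the deposited scale (x axis) for each gene measured on both arrays, by list (rows), coloured by whether the arrays shared a side after array 2 was turned, with a bar at each list's median; grey marks the central 95% of all probe means. With array 2 turned, medians of the basement membrane genes and the 5 lists of their partners lie between -0.033 and 0.092.

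Markers of the tissues that secrete or carry basement membranes did not all lie on one side. Of 8 fat body genes 5 were measured, 4 negative on both arrays and 0 positive on both, with a median of -0.124. The lipoprotein gene apolpp was lowest at -0.498 on array 1 and -0.243 on array 2, and the larval storage protein gene Lsp2 highest at 0.032 and -0.033. Of 12 hemocyte genes 11 were measured, 6 positive and 2 negative on both arrays, with a median of 0.0405. The prophenoloxidase gene PPO1 was highest at 0.738 and 0.166, and the lineage regulator lozenge (lz) lowest at 0.075 and -0.308. Picked out after their values were seen, the hemocyte genes Hml and crq had means of -0.057 and -0.1005. On the other side, eater and Sr-CI had means of 0.1105 and 0.035. NimC1 had -0.224 on array 2 alone. Without turning, the medians were 0.007 for fat body and 0.0295 for hemocyte genes. The part of these cells in the members' values was not tested.

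Muscle and midgut markers were also read. Of 13 muscle genes 8 were measured, 7 of them positive and 0 negative on both arrays, with a median of 0.299. They ran from the titin-like gene sls (0.002) to the alpha-actinin gene Actn (0.421). The Actn mean joins 2 probes that differed, at 0.653 and 0.189, and a second sls probe had 0.115 on array 2 alone. The 9 midgut protease genes, a list drawn from earlier results of these data, were all negative on both arrays, from epsilonTry (-0.869) to alphaTry (-0.472), with a median of -0.617. Without turning, the medians were 0.0338 for muscle and -0.062 for midgut genes, against 0.0385 for the 9 basement membrane genes. The part of these tissues in the members' values was not tested either. The probe for SF2, the gene of the transgenic protein, had -0.032 on array 1 and -0.137 on array 2 after turning, negative on both. Its mean was -0.0845, with an interval of -0.331 to 0.162 and an adjusted p of 0.997 by limma. Without turning, the SF2 value on array 2 lay on the positive side, opposite to array 1, and the mean was positive. Whether this probe lies in the part that the transgene carries is not stated in the labels.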

How the data were processed

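PolyA RNA of larvae was measured on 2 two-colour arrays in a dye swap, per the labels. The authors deposited 1 value per probe and array, handled here as a score because it is a log ratio of unstated base; the steps behind it, from scanner to filters, are not stated. Blank cells (3996 and 1450 on arrays 1 and 2) and 7 cells holding a missing-value code were treated as missing. The 960 unnamed features that recur at 40 places in each of 24 blocks were left out. In the platform annotation 13147 probes carry a single symbol, 99 carry several and 2498 carry none. Gene identifiers matched 12519 of the single symbols to the Release 6 plus ISO1 MT table, which gave the current names. Array 2 was turned and each array centred on the median of the compared probes.

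Each probe was tested against 0 with limma 3.58.1 in R 4.3.3 (lmFit, eBayes, two-sided, Benjamini-Hochberg over all 10912 compared probes; 1 residual degree of freedom). The test was checked on simulated data. The eBayes step drew each probe's variance toward that of all probes, with 4.51 prior degrees of freedom against 1 residual. Intervals and p-values therefore do not follow from the SD of a probe alone. Gene means were fitted likewise, with 6.68 prior degrees of freedom. The rule named every member, the highest and lowest gene of each list, and wb, Mp and SF2. Added after their values were seen were mys, mew, Dg, Sdc, dlp, ItgaPS5, PH4alphaEFB, Tango1, AdamTS-A, AdamTS-B, Hml, crq, eater, Sr-CI and NimC1. Members and lists were chosen with earlier results of these data known. The number of arrays, 2, limits the precision.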

Additional observations from a re-analysis of the deposited data

How the results depend on the processing

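Limma called 0 probes, members included, in the reported fit and under each alternative run, among them fits without moderation and with robust estimation, with 556 to 945 at an unadjusted p under 0.05. Read as already running by genotype, the members had 1 probe positive and 1 negative on both arrays. Their median was then -0.0095 over probes but 0.0385 over gene means. In all, 10 probes were then at least 1.5-fold on base 2 on the same side, against 23 in the reported fit. Means then changed sign for Col4a1 (0.095), LanA (0.0405), LanB2 (0.146), the second trol probe (-0.0135), SPARC (0.0385) and Ppn (-0.0385). Subtracting block medians changed the sign of the first Pxn probe (0.016). Read as log10, 800 probes were 1.5-fold on the same side, 2 of them members. The members' median of -0.0735 was -0.0725 without centring, -0.071 with the unnamed features kept, -0.0765 after block medians, -0.0795 with probes of 1 array added, -0.033 over gene means, and -0.058 to -0.057 with 1 array left out. With 1 array there is no test. Each array holds both crosses in 1 ratio, so the test of the ratios against 0 already compared the crosses within arrays. No further pairing was made. Intensities over background were not used here, so low signal could not be told from a small ratio.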
